A study of Homo sapiens with 6 samples.

Results

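The checkpoint ligands described here are surface proteins through which a cell signals to T cells, NK cells and macrophages. The 10 genes listed were CD274 (PD-L1), PDCD1LG2 (PD-L2), CD276 (B7-H3), VTCN1 (B7-H4), CD80, CD86, ICOSLG, HHLA2, PVR (CD155) and CD47. Members were all probe sets, the groups of probes that each give 1 value per array, whose annotation named exactly 1 gene and that gene was on the list. This gave 35 probe sets of 9 genes, among 44988 probe sets of 18132 genes tested in all. ICOSLG had no such probe set, because its 2 probe sets are annotated to a further locus as well. The list was built around CD274 and chosen on its measured difference between the groups of these same arrays, so the values of CD274 are given as a description with no test. The other 8 genes were added for what they are known to do, with 31 probe sets, and were tested. Earlier results of these data were known when they were chosen, so their p-values may not be free of that knowledge.

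RNA came from 786-O cells, an established human line from a renal cell carcinoma, grown in RPMI medium with serum. One group of 3 arrays carries the label shNC and the genotype control. The other 3, called shPLEKHO1 here, carry a short hairpin RNA (shRNA) against PLEKHO1, a pleckstrin homology domain protein, brought in by lentivirus. The labels do not spell out what the shNC cells received, and do not say how many hairpins were used. Nothing in the labels makes the replicates separate cultures, and the p-values therefore reflect the spread among these arrays alone, which may be technical. With 3 against 3 arrays an exact two-sided permutation test of any single value cannot go below p = 0.1. Values are intensities, the brightness of a probe set on a linear scale with no unit. A difference is the shPLEKHO1 mean less the shNC mean of log2(intensity + 1), with its SE after the ± sign and 3 arrays in each group. "Rose" and "fell" mean an adjusted p under 0.05 in limma over all 44988 probe sets.

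PD-L1 and PD-L2 bind the receptor PD-1 on activated T cells and lower their activity. CD80 and CD86 bind CD28 as costimulators and CTLA-4 as inhibitory ligands, and are known best from antigen-presenting cells. CD276, VTCN1 and HHLA2 are more distant relatives in the B7 family. PVR, an adhesion molecule of the nectin group, binds CD226 and the inhibitory receptor TIGIT, and CD47 binds SIRPA on macrophages and limits phagocytosis. In tumour cells CD274 transcription is known to respond to interferon gamma through JAK kinases, STAT factors and IRF1, and it has also been tied to NF-kB, AP-1 and, in renal carcinoma lines, the hypoxia factor EPAS1.

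The bases before the transcription start are shown for CD274, whose difference led to the list, and for CD276, PVR and CD47, of which all probe sets passed the test. They are the 250 bases before a RefSeq start on GRCh38.p14, 5′ to 3′ on the strand of the gene. CD274 lies at chr9:5450292-5450541 on the plus strand. CD276 has a pair of starts in the table, and the second is shown, at chr15:73684520-73684769 on the plus strand. PVR is at chr19:44643660-44643909 on the plus strand. CD47 is at chr3:108091032-108091281 on the minus strand. Capitals mark matches, on either strand, to the AP-1 motif TGANTCA, the hypoxia element core ACGTG, the STAT motif TTCNNNGAA, the interferon element (GAAA, any 2 bases, GAAA) or the NF-kB motif.
CD274: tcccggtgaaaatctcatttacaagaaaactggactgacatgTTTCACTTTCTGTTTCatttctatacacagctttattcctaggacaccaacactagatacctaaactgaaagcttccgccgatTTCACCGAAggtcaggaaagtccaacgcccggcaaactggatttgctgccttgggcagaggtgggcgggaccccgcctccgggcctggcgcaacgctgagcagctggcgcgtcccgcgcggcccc
CD276: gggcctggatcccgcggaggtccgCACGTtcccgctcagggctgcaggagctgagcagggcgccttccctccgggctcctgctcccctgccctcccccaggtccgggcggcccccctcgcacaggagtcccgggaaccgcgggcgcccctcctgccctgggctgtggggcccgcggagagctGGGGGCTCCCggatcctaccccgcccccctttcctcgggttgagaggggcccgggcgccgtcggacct
PVR: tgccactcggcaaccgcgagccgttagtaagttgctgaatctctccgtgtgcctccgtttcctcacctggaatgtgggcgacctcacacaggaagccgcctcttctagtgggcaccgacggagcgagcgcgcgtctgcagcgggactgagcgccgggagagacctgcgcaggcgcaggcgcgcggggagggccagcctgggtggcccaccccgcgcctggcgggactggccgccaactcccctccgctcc
CD47: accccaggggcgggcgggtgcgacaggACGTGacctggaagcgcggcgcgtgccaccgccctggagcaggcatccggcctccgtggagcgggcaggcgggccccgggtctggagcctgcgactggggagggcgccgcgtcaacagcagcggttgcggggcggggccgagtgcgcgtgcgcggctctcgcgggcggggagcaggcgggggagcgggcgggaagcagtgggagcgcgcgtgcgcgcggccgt

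The CD274 window held 1 STAT motif, from base -125 to -117, and 2 interferon elements, from -208 to -199 and from -202 to -193, which overlap each other. It held no AP-1, hypoxia or NF-kB match. Of 35116 such windows in the table, 6.57% held the STAT motif and 3.02% the interferon element. The CD276 window held 1 hypoxia core from -226 to -222 and 1 NF-kB motif from -68 to -59, and the CD47 window 1 hypoxia core from -223 to -219. The hypoxia core was in 18.5%, the NF-kB motif in 9.96% and the AP-1 motif in 6.57% of all windows. The 1 window of PVR and the first window of CD276 held none of the 5 motifs. These matches describe letters in a window and do not show binding.

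The arrays were close in overall brightness, with a median between 55.7 and 57.1. PLEKHO1 itself averaged 135 ± 8.24 in the control arrays and 108 ± 9.42 in the shPLEKHO1 arrays (SD, n = 3), and fell by 0.32 ± 0.08 on the log2 scale (limma adjusted p = 0.0124). This is 1.25-fold lower, on a single probe set that read within the range of the background probe sets described below. Renal epithelial markers were bright, with PAX8 at 424 ± 42.4 and KRT18 at 1507 ± 67.6 in shNC (SD, n = 3). Of 11 such markers measured, 2 rose and 6 fell, PAX8 among the latter. These are 18.2% and 54.5%, where 17.6% of all genes, each read by its brightest probe set, rose and 15.6% fell. Most leukocyte markers were dim. LAPTM5, ITGAX and CD79A were not, with means of 113, 125 and 88.4 in shNC. The median over all tested probe sets was 57.7. The pan-leukocyte marker PTPRC had a mean of 6.39 in shNC, the 8 T cell markers summed to between 156 and 175 in shNC and between 154 and 191 in shPLEKHO1, and the 10 myeloid and dendritic markers to between 288 and 329 and between 312 and 349. Of the T cell, 4 B cell and myeloid markers, 0 passed in limma, with 2 of the myeloid markers and 0 of the others at an unadjusted p under 0.05. Of 3 general leukocyte markers LAPTM5 rose (0.67 ± 0.05). The 6 endothelial and fibroblast markers summed to between 250 and 281 in shNC and between 238 and 270 in shPLEKHO1, and 0 of them passed or had an unadjusted p under 0.05. The part of these shifts in the results below was not tested.

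CD274 codes for PD-L1. Its brightest probe set, 11728316_at, read 57.76, 49.50 and 62.74 with shNC and 176.0, 240.9 and 222.5 with shPLEKHO1. The lowest shPLEKHO1 value was thus far above the highest shNC value. The mean went from 56.7 ± 6.69 to 213 ± 33.5 (SD, n = 3), a log2 difference of 1.90 ± 0.12 or 3.73-fold. A further probe set, 11745710_a_at, read 42.77, 37.62 and 51.85 with shNC and 145.4, 167.2 and 152.6 with shPLEKHO1. This was a difference of 1.81 ± 0.11, close to that of the first.

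The widest gap was on 11753159_a_at, which read 31.56, 31.24 and 29.16 with shNC and 192.5, 211.6 and 172.3 with shPLEKHO1. The log2 difference was 2.61 ± 0.07, or 6.10-fold. On each of these 3 probe sets the groups did not overlap, and shPLEKHO1 replicate 2 was the highest array. The fourth, 11762857_at, read 7.23, 6.82 and 6.60 with shNC and 9.34, 6.17 and 7.71 with shPLEKHO1. Its groups overlapped, with a difference of 0.12 ± 0.11, and its values lay in the range of the background probe sets described below. The shNC values of the other 3 probe sets lay in that range too. Their shPLEKHO1 values lay in it only beside the background classes richest in G and C bases. Averaged over all 4 probe sets, 11762857_at included, the difference was 1.61. In bulk RNA such as this, more cells with the transcript and more transcript per cell cannot be told apart.

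**Figure D1:**
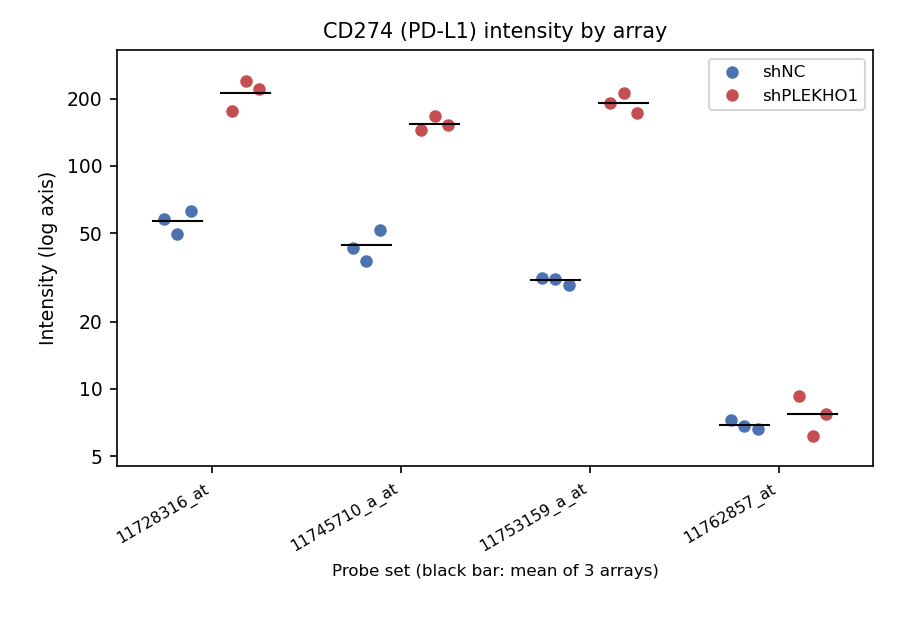
Intensity (log axis) of the 4 probe sets of CD274 on each array, shNC in blue and shPLEKHO1 in red, with the mean of 3 arrays as a black bar. On 3 probe sets all shPLEKHO1 points lie above all shNC points, and on 11762857_at both groups lie below 10 and overlap.

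The genes whose log2 profile over the 6 arrays was most like that of the brightest CD274 probe set were sought among 10176 genes with a mean above the median, by the root mean square distance between centred profiles. AKAP12, a scaffold of protein kinase A, was closest (distance 0.159), and its mean went from 1488 to 5295. Among the others of the 5 closest were GLIPR1 (0.185, from 213 to 941), the cytokine IL6 (0.193, from 386 to 1249) and the scaffold HOMER2 (0.194, from 125 to 386). The profiles hold only 6 arrays in 2 groups, and CD274 was chosen on that same contrast, so this is a description.

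Among the 31 probe sets of the other genes, 3 rose and 8 fell in limma, which is 9.68% and 25.8%. Over all probe sets 17.3% rose and 15.7% fell. The median log2 difference was -0.01, against 0.01 over all probe sets. The groups did not overlap on 13 of the 31, and on 43.0% of all probe sets. Read by 1 probe set a gene, that with the highest mean, 1 of the 8 genes rose (CD47) and 2 fell (CD276 and PVR). Over all genes read this way 17.6% rose and 15.6% fell. Differences of the 31 ran from -0.89 to 0.47.

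**Figure D2:**
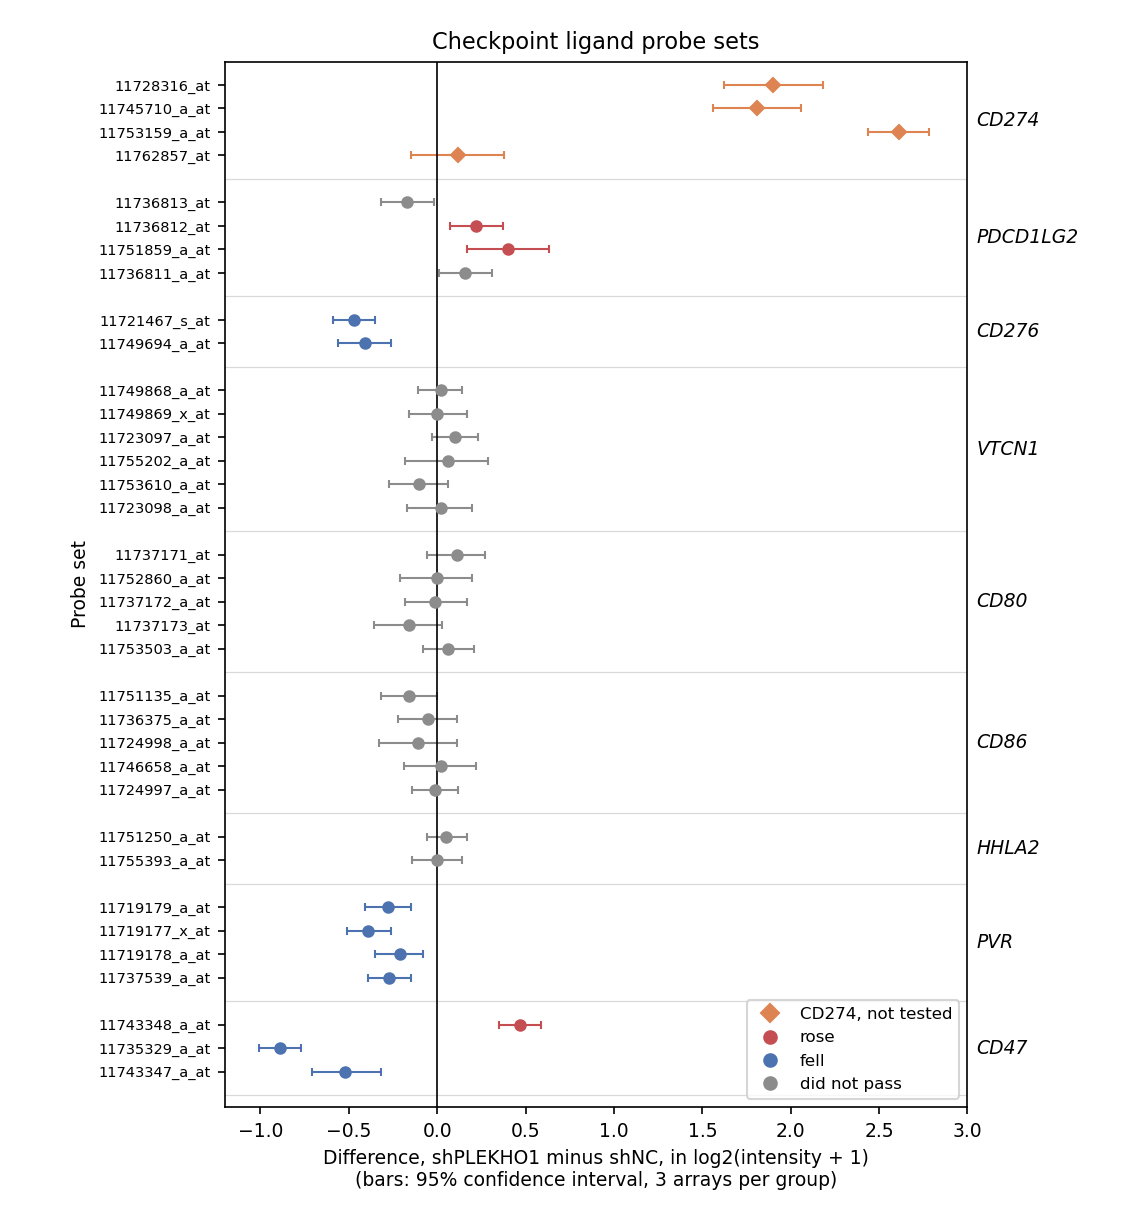
Log2 difference, shPLEKHO1 minus shNC, of each of the 35 probe sets with its 95% confidence interval from limma, grouped by gene, with CD274 as orange diamonds because it was not tested (red, rose; blue, fell; grey, did not pass). CD276 and PVR lie wholly to the left of 0, CD47 has points on both sides, and VTCN1, CD80, CD86 and HHLA2 lie near 0.

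PDCD1LG2, the gene of PD-L2 and the next protein-coding gene after CD274 on chromosome 9, showed small differences that depended on the probe set. The one with the largest rise, 11751859_a_at, read 39.14, 33.10 and 38.77 with shNC and 44.02, 49.96 and 53.62 with shPLEKHO1. The groups did not overlap, and it rose by 0.40 ± 0.10 (1.32-fold, limma adjusted p = 0.0156). The call was lost when shPLEKHO1 replicate 2 was left out (0.38, adjusted p = 0.0519) and likewise for shPLEKHO1 replicate 3 (0.33, 0.0548). Over the alternatives the adjusted p lay between 0.00527 and 0.0548.

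A second PDCD1LG2 probe set, 11736812_at, read 54.79, 48.72 and 53.99 with shNC and 60.25, 63.50 and 58.71 with shPLEKHO1. It rose by 0.22 ± 0.07 (limma adjusted p = 0.0308), again without overlap. Leaving out any array but shNC replicate 1 ended that call: shNC replicate 2 (0.17, adjusted p = 0.0904), shNC replicate 3 (0.24, 0.0604), shPLEKHO1 replicate 1 (0.23, 0.0607), shPLEKHO1 replicate 2 (0.19, 0.0936) and shPLEKHO1 replicate 3 (0.24, 0.0566), in a range from 0.0195 to 0.0936. The third, 11736811_a_at, did not pass (0.16 ± 0.07, adjusted p = 0.0938), although its groups did not overlap.

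The brightest PDCD1LG2 probe set, 11736813_at, had the opposite sign. It read 72.71, 69.25 and 77.77 with shNC and 62.34, 70.18 and 62.32 with shPLEKHO1, and the groups overlapped through shPLEKHO1 replicate 2. The difference of -0.17 ± 0.07 did not pass (limma adjusted p = 0.0902), but passed without shPLEKHO1 replicate 2 (-0.22, adjusted p = 0.0389), where the alternatives spanned 0.0389 to 0.255. Averaged over the 4 probe sets, the difference was 0.15. The log2 ratio of 11751859_a_at to this probe set within each array was -0.88, -1.04 and -0.99 with shNC and -0.49, -0.48 and -0.21 with shPLEKHO1. The ratios did not overlap, so the probe sets of PDCD1LG2 changed unequally. Which transcripts each of them reads was not analysed here. All 4 probe sets read within the range of the background probe sets described below, and the part of background in their differences was not tested.

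CD276, the B7-H3 ligand, was lower with shPLEKHO1 on both probe sets. The brighter, 11721467_s_at, read 478.6, 437.3 and 437.5 with shNC and 317.2, 346.0 and 311.9 with shPLEKHO1. All 3 shPLEKHO1 arrays lay below all shNC arrays, and it fell by 0.47 ± 0.05 on the log2 scale (1.38-fold lower, limma adjusted p = 0.000245). The suffix s marks, by the array maker's convention, probes that can match transcripts of more than 1 gene. The other, 11749694_a_at, whose probes are assigned to transcripts of this gene alone, read 244.6, 204.8 and 215.3 with shNC and 169.8, 162.7 and 160.6 with shPLEKHO1. It fell by 0.41 ± 0.07 (1.33-fold lower, limma adjusted p = 0.00174), and the 95% intervals of the 2 probe sets, from -0.59 to -0.35 and from -0.56 to -0.26, overlapped. Both calls held in each alternative run.

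PVR, the ligand of CD226 and TIGIT, fell on all 4 of its probe sets, by smaller amounts. The brightest, 11719179_a_at, read 450.3, 394.9 and 401.7 with shNC and 324.3, 356.9 and 342.6 with shPLEKHO1. It fell by 0.28 ± 0.06 (1.21-fold lower, limma adjusted p = 0.00506) and its groups did not overlap.

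The largest fall of PVR was on 11719177_x_at, which read 284.5, 269.9 and 266.6 with shNC and 214.4, 203.8 and 199.7 with shPLEKHO1. This was a fall of 0.39 ± 0.05 (limma adjusted p = 0.000803), on a probe set whose suffix x marks probes that may cross-hybridise. The probe set 11737539_a_at fell by 0.27 ± 0.05 (adjusted p = 0.00391). The smallest fall, 0.21 ± 0.06 on 11719178_a_at (adjusted p = 0.0222), was lost when any of 3 arrays was left out: shNC replicate 1 (-0.17, adjusted p = 0.0599), shPLEKHO1 replicate 1 (-0.19, 0.0722) or shPLEKHO1 replicate 3 (-0.22, 0.0528). The alternatives spanned 0.00542 to 0.0722. The other 3 calls held in each alternative run.

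CD47, the signal that limits phagocytosis, went both ways by probe set. The brightest, 11743348_a_at, read 1414.9, 1302.7 and 1320.8 with shNC and 1873.5, 1801.5 and 1932.9 with shPLEKHO1. It rose by 0.47 ± 0.05 (1.39-fold, limma adjusted p = 0.000204), with no overlap. The second, 11735329_a_at, read 452.5, 419.0 and 426.7 with shNC and 232.9, 225.7 and 235.6 with shPLEKHO1. It fell by 0.89 ± 0.05 (1.85-fold lower, limma adjusted p = 9.14e-06), the largest difference of the tested ligands, also with no overlap. The third, 11743347_a_at, read 138.0, 166.0 and 170.5 with shNC and 106.9, 113.2 and 108.9 with shPLEKHO1, and fell by 0.52 ± 0.09 (adjusted p = 0.00197).

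Each of these CD47 calls held in the alternatives that kept probe sets apart, while the mean of all 3 probe sets had the sign of the falls (-0.31, adjusted p = 0.000652). The log2 ratio of the brightest to the second probe set was 1.64, 1.63 and 1.63 in the control arrays and 3.00, 2.99 and 3.03 under the hairpin. The ratio thus differed by 1.37, against an SD of 0.01 and 0.02 within the groups, and the arrays of a group were nearly alike. All 3 probe sets are of the kind annotated to transcripts of CD47 alone. The probe sets of CD47 thus changed unequally, and in opposite directions. Which transcripts each reads, and whether their sum differed, was not analysed here.

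**Figure D3:**
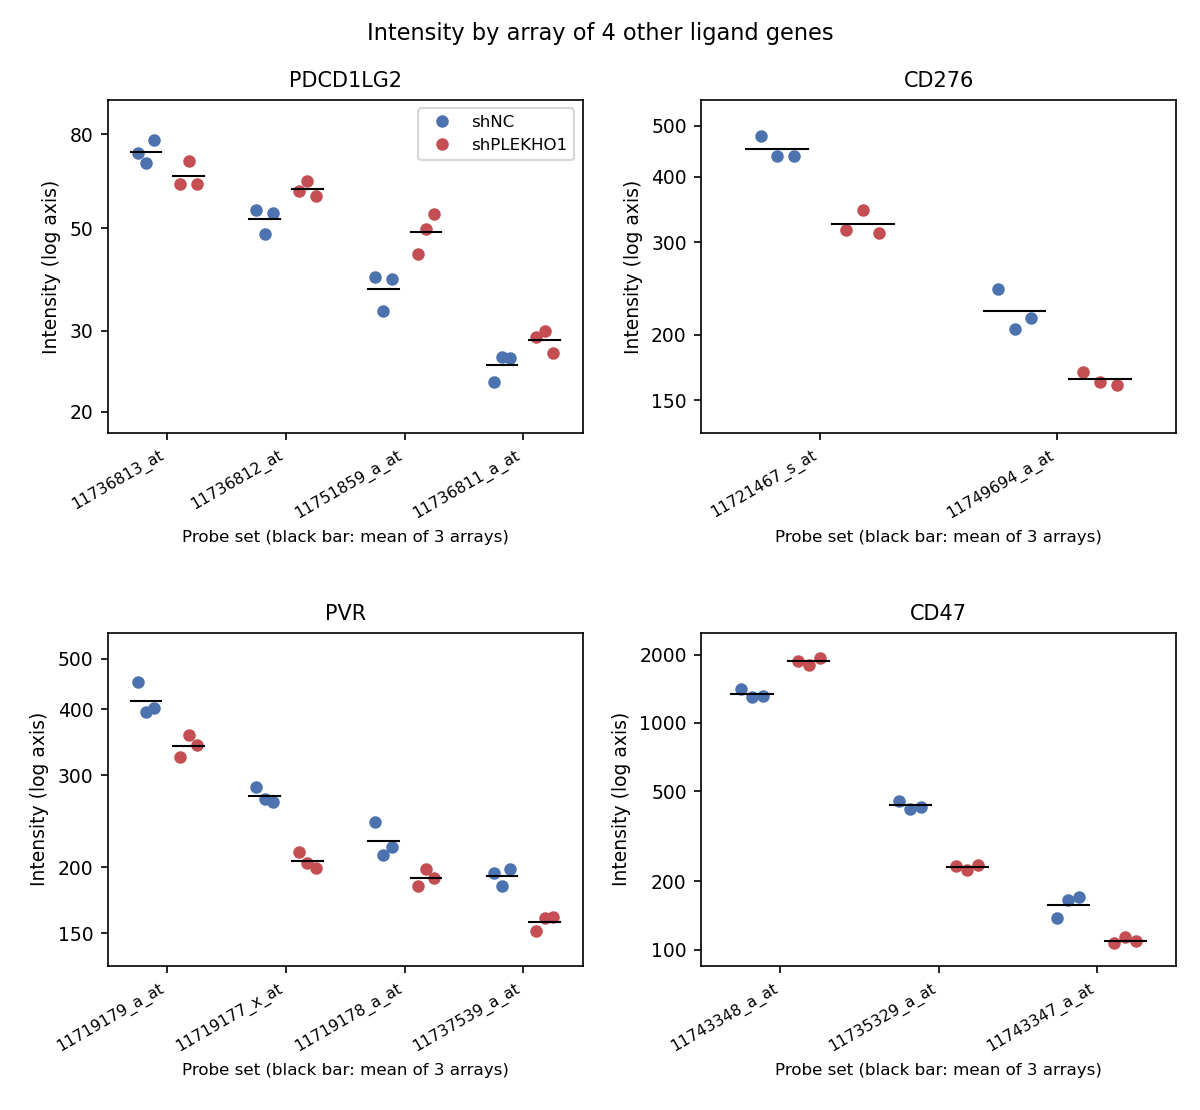
Intensity (log axis, a different range in each panel) of the probe sets of PDCD1LG2, CD276, PVR and CD47 on each array, shNC in blue and shPLEKHO1 in red, with the mean of 3 arrays as a black bar. For CD276 and PVR all red points of a probe set lie below its blue points, whereas for CD47 the brightest probe set is higher with shPLEKHO1 and the other 2 are lower.

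VTCN1, CD80, CD86 and HHLA2 were dim in both groups. Their 18 probe sets read between 5.30 and 30.22 over all arrays, and 0 of the 18 passed in limma (smallest adjusted p = 0.116), with 1 at an unadjusted p under 0.05 (CD86, 11751135_a_at). Differences ranged from -0.16 to 0.11, and the 95% intervals reached from -0.36 to 0.29. The brightest probe set of CD80, the costimulator B7-1, read 27.55, 24.43 and 28.71 with shNC and 30.22, 27.95 and 29.31 with shPLEKHO1, and that of CD86, or B7-2, read 25.24, 29.94 and 26.91 and then 26.95, 22.55 and 24.07. The groups overlapped for both.

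The inhibitory ligand VTCN1 had 6 probe sets, which read between 5.76 and 12.09. HHLA2, a ligand of the receptors TMIGD2 and KIR3DL3, had 2. The brighter read 11.32, 11.06 and 11.08 with shNC and 12.06, 11.76 and 11.34 with shPLEKHO1, and although its groups did not overlap, the difference of 0.05 ± 0.05 did not pass (limma adjusted p = 0.490). The array carries background probe sets of no human gene, sorted by the number of G and C bases in their probes. In shNC they averaged 5.53 for 10 such bases, 13.3 for 16 and 29.7 for 18, and in shPLEKHO1 5.53, 13.9 and 31.6. Their own difference grew with base content, from 0.05 at 16 to 0.12 at 20 and 0.19 at 24, and its part in the results was not tested. The base content of the members' probes was not analysed here, so these intensities cannot be told apart from background. The same holds for PDCD1LG2, which read between 23.21 and 77.77, and for CD274 in shNC. Background probe sets with 17 and 21 such bases averaged 19.4 and 93.4 in shNC. Those with 22, 24 and 25 averaged 163, 426 and 1926. Within that full range lay PLEKHO1, CD276, PVR, CD47 and CD274 in shPLEKHO1 as well. The part of background in their differences was not tested. The probe sets shared by ICOSLG and its near-identical copy averaged 23.9 ± 0.704 and 37.4 ± 1.62 with shNC and 22.0 ± 2.43 and 38.4 ± 2.35 with shPLEKHO1 (SD, n = 3), and were not tested.

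**Figure D4:**
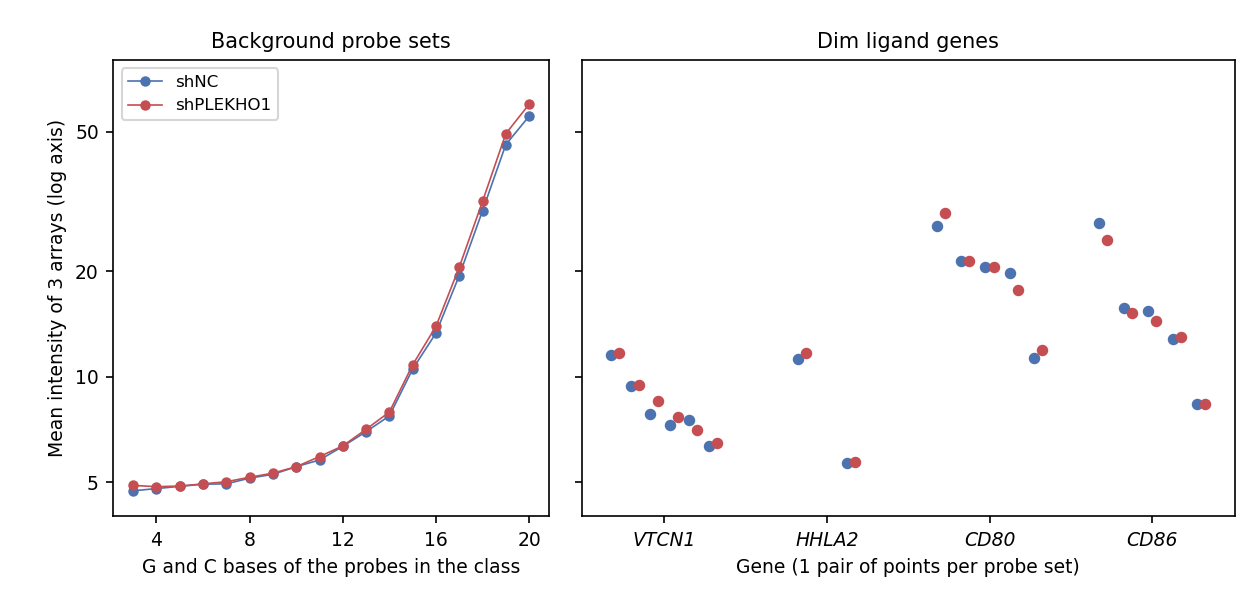
Left, mean intensity (log axis) of the background probe sets against the number of G and C bases in their probes, up to 20; right, mean intensity of each probe set of VTCN1, HHLA2, CD80 and CD86, shNC in blue and shPLEKHO1 in red. The 18 ligand probe sets lie within the range that the background probe sets span, and the colours nearly coincide.

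The genes around CD274 and PDCD1LG2 on chromosome 9 were read by 1 probe set each. Of 17 neighbours measured, 6 rose and 0 fell in limma, with 0 lower at an unadjusted p under 0.05 as well. Of all genes read this way, 17.6% rose and 15.6% fell. The median difference was 0.05 for the neighbours and 0.01 over all genes. JAK2, the kinase that carries the interferon gamma signal, rose by its brightest probe set (0.40 ± 0.07, 1.32-fold, limma adjusted p = 0.00242), the only 1 of its 3 probe sets that did. Between JAK2 and CD274, INSL6 (-0.08), INSL4 (0.00), RLN2 (-0.04) and RLN1 (0.05) did not pass and were dim. PLGRKT, a plasminogen receptor and the coding gene just before CD274, rose by 0.45 ± 0.05 (limma adjusted p = 0.000175). RIC1, just after PDCD1LG2, did not pass by its brightest probe set (-0.01 ± 0.06, adjusted p = 0.930), though 1 of its 5 probe sets rose. Farther away, CDC37L1 rose by 0.70 ± 0.07 and RANBP6, an importin-like gene, by 1.34 ± 0.07 (limma adjusted p = 5.83e-06), from a mean of 107 to 270. The other two that rose, AK3 and GLDC, were named after their values were seen, as was BRD10. GLDC, which was dim, rose by 0.33 ± 0.07. AK3 rose by 0.15 ± 0.05 (adjusted p = 0.0461) on 1 of its 4 probe sets. Its call was lost without any single array, with an adjusted p of 0.113, 0.0813 and 0.0976 without shNC replicates 1, 2 and 3 and of 0.123, 0.0621 and 0.120 without shPLEKHO1 replicates 1, 2 and 3, and the alternatives spanned 0.00142 to 0.123. The count of neighbours that rose was 5 in each of these 6 fits. BRD10 did not pass by its brightest probe set (-0.04 ± 0.05, adjusted p = 0.651), though 1 of its 3 probe sets fell.

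**Figure D5:**
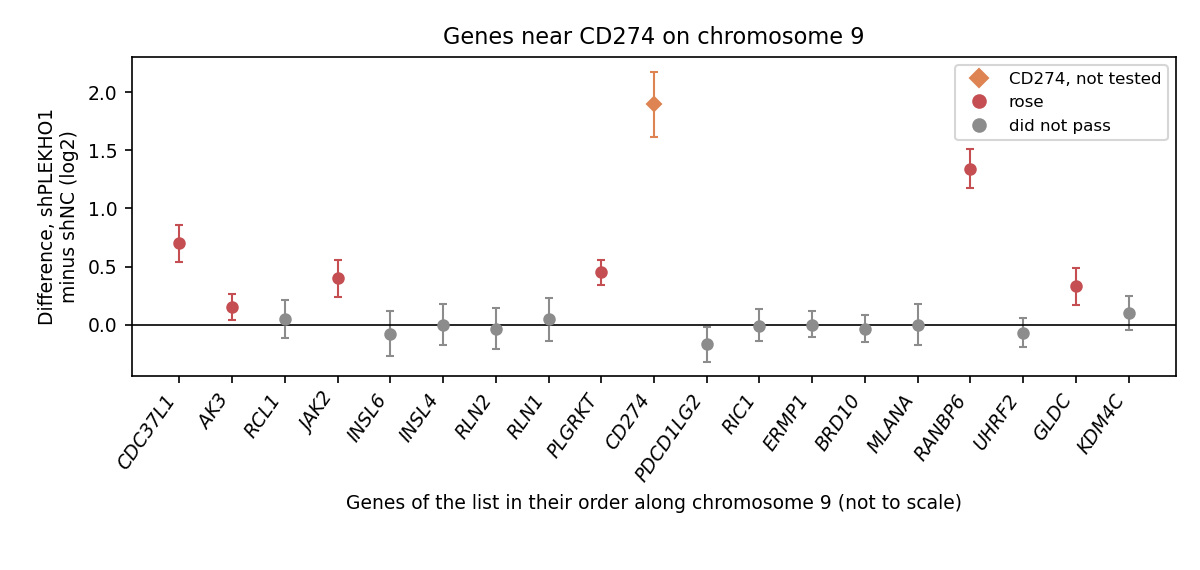
Log2 difference, shPLEKHO1 minus shNC, with 95% confidence intervals, of the measured genes near CD274 in their order along chromosome 9, each read by its brightest probe set. CD274 (1.90, not tested) and RANBP6 (1.34) stand highest, PDCD1LG2 lies at -0.17, and the 4 genes from INSL6 to RLN1 lie near 0 (red, rose; grey, did not pass).

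Of a list of interferon receptors, JAK kinases, STAT and IRF factors and their inhibitors, 18 genes were measured. Of these, 3 rose and 3 fell (median -0.03). The list held genes of other interferon routes besides that from interferon gamma to IRF1. This is 16.7% each way, against 17.6% and 15.6% of all genes, near the background. With a pseudocount of 16, without the lowest 30% of probe sets or with robust fitting and a variance trend, 5 fell. SOCS3, a feedback inhibitor of JAK and STAT signalling, rose most, from a mean of 55.8 to 117 (1.06 ± 0.07, limma adjusted p = 1.36e-05). STAT3 rose slightly (0.20 ± 0.05, adjusted p = 0.0228), a call lost without shNC replicate 2 (adjusted p = 0.0793), shNC replicate 3 (0.0740), shPLEKHO1 replicate 2 (0.0645) or shPLEKHO1 replicate 3 (0.0602), in a range from 0.00158 to 0.0793. The receptor subunit IFNGR2 (-0.36 ± 0.05) and the kinase JAK1 (-0.25 ± 0.05) fell, JAK1 on 2 of its 3 probe sets. IRF9 fell by 0.17 ± 0.06 by its brightest probe set (adjusted p = 0.0479), the only 1 of its 4 that did. When 1 array was left out, that call held only without shPLEKHO1 replicate 3. The adjusted p was 0.121, 0.0655 and 0.129 without shNC replicates 1, 2 and 3. It was 0.146 and 0.0855 without shPLEKHO1 replicates 1 and 2, in a range from 0.0223 to 0.188. IRF1 itself, named after its values were seen, did not pass (-0.16 ± 0.06, adjusted p = 0.0749) but did without shPLEKHO1 replicate 1 (-0.21, adjusted p = 0.0468), in a range from 0.0233 to 0.196; 1 of its 4 probe sets fell.

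Of 28 measured genes of NF-kB, AP-1, the hypoxia factors, MYC and YAP, 9 rose and 3 fell (median 0.10). The shares were 32.1% and 10.7%, against 17.6% and 15.6% of all genes. SRF (0.95 ± 0.05), ATF3 (0.78 ± 0.06) and JUN (0.53 ± 0.05) rose, with limma adjusted p-values of at most 0.000119. SRF rose on both probe sets, ATF3 on 6 of 7 and JUN on 3 of 4. Averaged over the probe sets of each gene, these differences were 0.68, 0.43 and 0.34. The AP-1 members FOSL2 (-0.49 ± 0.05) and FOSL1 (-0.38 ± 0.05) and the YAP relative WWTR1 (-0.41 ± 0.06) fell, although 1 of the 5 probe sets of FOSL2 rose. FOSL1 fell on 4 of its 6 probe sets and WWTR1 on 2 of its 3. EPAS1, named after its values were seen, rose on both of its probe sets, by 0.54 ± 0.07 on the brighter (adjusted p = 0.000437).

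Of 30 measured genes reported to control PD-L1 or CD47 as proteins, 9 rose and 5 fell (median 0.03). The shares were 30% and 16.7%, against 17.6% and 15.6% of all genes. The recycling GTPase RAB11A (0.56 ± 0.05), the F-box protein BTRC (0.50 ± 0.07) and the palmitoyl transferase ZDHHC9 (0.36 ± 0.05) rose. RAB11A rose on 2 of its 4 probe sets, BTRC on all 4 and ZDHHC9 on 2 of 3. CMTM6, which keeps PD-L1 at the cell surface and was named after its values were seen, rose on both probe sets (0.25 ± 0.05, limma adjusted p = 0.00574). Cyclin D1, CCND1, fell from a mean of 2658 to 999 (-1.41 ± 0.05, limma adjusted p = 1.05e-06). The sheddase ADAM17 fell by 0.61 ± 0.05 by its brightest probe set, and 3 of its 4 probe sets fell. GSK3B, a kinase that marks PD-L1 for degradation, had a brighter probe set that fell (-1.12 ± 0.06) and a dimmer one that rose. No protein was measured.

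Of 16 measured receptors of these or other checkpoint ligands, 1 rose and 1 fell (median 0.01). This is 6.25% each way, against 17.6% and 15.6% of all genes. SIRPA, the receptor of CD47, fell by 0.94 ± 0.06 on its brightest probe set (from a mean of 771 to 402, limma adjusted p = 1.16e-05) and fell on all 3 probe sets. RGMB, which binds PD-L2, rose by 0.39 ± 0.06 (adjusted p = 0.00105) on 1 of its 2 probe sets. The other 14 did not pass. Among 14 ligands, binding partners and modifying enzymes of CD47, SIRPA included, 2 rose and 3 fell (14.3% and 21.4%, against 17.6% and 15.6% of all genes). The integrin ITGA2 rose by 0.54 ± 0.07.

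Further CD47 partners gave weaker calls. THBS1, a secreted ligand of CD47, rose by 0.22 ± 0.07 (limma adjusted p = 0.0367) and on all 5 of its probe sets, but the brightest lost its call when any array but shPLEKHO1 replicate 2 was left out: the adjusted p was 0.0831, 0.0801 and 0.104 without shNC replicates 1, 2 and 3, and 0.112 and 0.116 without shPLEKHO1 replicates 1 and 3, in a range from 4.61e-05 to 0.116. ITGB3 fell by 0.20 ± 0.06 by its brightest probe set (adjusted p = 0.0267), and 3 of its 7 probe sets fell. The call of the brightest was lost without shNC replicate 1 (0.0749), shNC replicate 3 (0.0964), shPLEKHO1 replicate 1 (0.0762) or shPLEKHO1 replicate 3 (0.0845), in a range from 0.00133 to 0.0964. UBQLN1 fell by its brightest probe set (-0.19 ± 0.05, adjusted p = 0.0161) while its other 2 rose. That call was lost without shNC replicate 2 (0.0606) or shPLEKHO1 replicate 1 (0.0537), in a range from 0.000192 to 0.0606. Without shPLEKHO1 replicate 1, 1 of the genes on this CD47 list rose and 1 fell, and 1 rose without any of the 3 shNC arrays or without shPLEKHO1 replicate 3.

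Other ligands of T and NK cell receptors went in both directions. Of 39 measured, 8 rose and 10 fell (median -0.00), or 20.5% and 25.6%, against 17.6% and 15.6% of all genes, and 6 fell without shPLEKHO1 replicate 1. CADM1, an adhesion molecule that binds CRTAM, rose on all 6 probe sets, by 0.88 ± 0.05 on the brightest (limma adjusted p = 9.91e-06). The butyrophilins BTN2A1 (0.86 ± 0.06) and BTN2A2 (0.52 ± 0.05) rose, BTN2A2 on 5 of its 7 probe sets. MICA, a stress ligand of the NK receptor NKG2D, fell on all 3 probe sets (-0.73 ± 0.05, limma adjusted p = 1.57e-05), and HLA-E, which binds NKG2A, on all 6 (-0.48 ± 0.05 on the brightest). CD24, a ligand of SIGLEC10, fell by 0.38 ± 0.05. Its single probe set, and the brightest of MICA and HLA-E, may match further genes by the suffix s or x. The same holds for the brightest probe sets of SIRPA, SRF, FOSL1, GSK3B, BTRC, ZDHHC9, CMTM6, AK3, RIC1, KRT18 and ITGAX.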

How the data were processed

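RNA of 3 shNC and 3 shPLEKHO1 samples was hybridised to 1 single-colour Affymetrix array each. The authors deposited linear intensity values. The submitters' processing notes name Affymetrix Expression Console, while which version, algorithm or normalization it ran is not given in the sources used here. They ran from 4.33 to 19770.

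Of 49395 probe sets, 44988 with exactly 1 symbol and no control were tested, with symbols updated through Entrez identifiers for 44961. The values were taken as log2(intensity + 1), which understates changes of dim genes, and quantile normalized over all probe sets. The group difference was fitted per probe set in limma 3.58.1 (R 4.3.3; lmFit, then eBayes) with no covariate, and p-values were adjusted by Benjamini-Hochberg over all 44988, at a threshold of 0.05 (4 residual and 4.06 prior degrees of freedom). The steps were also tested on simulated data. Lists were read by the probe set with the highest mean per gene; symbols not among those tested were not analysed here.

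Named genes are all members, up to 3 genes per list and direction with the smallest p among those that passed, the genes from JAK2 to RIC1 on chromosome 9, PLEKHO1, and the 5 profiles most like CD274, of which 1 is not reported here. Members and lists were chosen with earlier results of these data known. Promoter sequences are from RefSeq (GRCh38.p14), where 9 of the 10 genes had 1 or more windows and PDCD1LG2 was not matched. The only coordinates given are those of these windows.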

Additional observations from a re-analysis of the deposited data

How the results depend on the processing

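The alternatives were no quantile normalization, centring on the median, no pseudocount or one of 16, leaving out the lowest 30% of probe sets, array weights, robust fitting with a trend in the variance, a replicate block, 1 probe set a gene, the mean of a gene's probe sets, and leaving out each array in turn. Of 435 values for the 31 tested member probe sets, 420 kept their direction and side of the threshold or had no call to lose, 12 lost the call, 2 gained one and 1 turned. The one that turned was the brightest CD47 probe set, at -0.31 with the mean of all probe sets. UBQLN1 turned too, to 0.24 with that mean. The count of 3 member probe sets that rose was 1 to 3 when 1 array was left out; read by 1 probe set a gene, 1 of 8 genes rose and 2 fell, and with the mean of probe sets 0 rose and 3 fell. Both settings hold fewer features, and averaging also turned CD47 from a rise to a fall. With a pseudocount of 16 the CD274 differences were 1.66, 1.52 and 2.16, smaller by the construction of that scale, and with the mean of its probe sets, the dim one included, 1.61. The list genes that rose were 30 to 41 and those that fell 18 to 29, of 158. The replicate numbers did not pair the arrays: deviations of same-numbered arrays correlated at -0.152, -0.146 and -0.0401. With the replicate block, 2 member probe sets rose and 7 fell, and 11736812_at of PDCD1LG2 (adjusted p = 0.0739) and 11719178_a_at of PVR (0.0614) lost their calls. Signal near background limits CD80, CD86, VTCN1, HHLA2 and PDCD1LG2, and CD274 in shNC. The other members, and CD274 in shPLEKHO1, also read within the full range of the background probe sets, and the part of background there was not tested.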
